A study of Sus scrofa with 19 samples.

Results

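Free doxorubicin was compared directly with its liposomal form in the left ventricle (LV) of pigs, using 10 of the 19 RNA-seq libraries of the series. The DOX group held 5 pigs given doxorubicin and the MYO group 5 pigs given Myocet, a complex of doxorubicin with citrate inside liposomes. Both groups consisted of large white pigs described as female, and both received 60 mg/m2 in each of 3 cycles, on days 1, 22 and 43. Follow-up ended at 3 months because the health of the animals had deteriorated, and tissue was taken from the anterior wall. The remaining 9 libraries, 3 each named RemoLV, Hyper and Control, entered an alternative model of all 5 groups, the matching of names and a count of Y-linked genes. Hyper, the group with an induced stenosis of the aorta and a follow-up of 6 months, also entered 1 comparison and 1 value of spread. Each library came from 1 pig, and no age was used here.

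The names of 2 of the 10 libraries differed between the deposits. Ranked by Spearman correlation, every sample column of the authors' expression table matched a single count file at 1. The count file titled DOX5 matched the column named MYO1, while the count file titled MYO1 matched the column named DOX5. Every comparison was therefore made with the titles of the count files (file labels) and again with these 2 libraries exchanged (table names). Single libraries are called by their file labels throughout. The 4 libraries DOX1 to DOX4 and the 4 libraries MYO2 to MYO5 kept their group under both namings, so the namings share most of their data and are not independent of each other.

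Doxorubicin is an anthracycline that intercalates into DNA and poisons topoisomerase II, and its use is limited by damage to the heart. Cardiac myocytes contain mostly the beta isoform of this enzyme, while the alpha isoform is a marker of dividing cells. Reduction of the drug by flavin enzymes and its reaction with iron give reactive oxygen species, and mitochondria, calcium handling and the capillary endothelium are known sites of injury. Encapsulation in liposomes changes how the drug is distributed and released, which is meant to lower the exposure of the heart. The question put to these data was whether the LV transcriptome 3 months after the first dose differed between the formulations, and how large a difference 5 pigs per group could have shown.

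Total counts lay between 10147011 and 15975201 per library, and between 15402 and 15831 genes had at least 1 count. Neither these totals nor the number of genes nor the share of counts on mitochondrial genes, between 12.7% and 19.7%, separated DOX from MYO under either naming (exact permutation tests, 2-sided, p between 0.294 and 0.794). The ventricular light chains MYL2 and MYL3 stood at 9544 to 14488 and 5323 to 6848 CPM (counts per 1000000 of the TMM-scaled library size), and the atrial light chain MYL4 at 2.47 to 23.4 CPM. The Y-linked genes DDX3Y, ZFY, KDM5D and EIF1AY together had 174 to 252 counts per 1000000 in each of the 10 libraries and 0 to 4 counts in each of the other 9, against the description of the animals as female. These Y-linked levels were alike in both drug groups, with a median difference of 0.04 on the log2 scale.

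DOX1 stood apart from the other 9 libraries. On the first principal component of the rlog values (regularised log2 counts) of the 10 libraries, which held 35.5% of the variance, it scored 26.7 and the others between -6.72 and 4.63. The scores of DOX and MYO differed by 6.90 with file labels (p = 0.357) and by 8.0 with table names (p = 0.190; exact permutation tests, 2-sided, over all 252 choices of 5 from 10 libraries, for which the smallest possible p is 0.00794). Recomputed without DOX1, the first and second components held 20.0% and 19.3% of the variance. The first of these need not be the same axis as with all libraries. With its sign aligned to that one, the difference on it was -1.11 (file labels) and -3.50 (table names). On the second component, with 13.2% of the variance, the groups differed by 4.24 with file labels (exact permutation p = 0.270) and by 7.59 with table names (exact permutation p = 0.0397, Benjamini-Hochberg adjusted over both components and namings 0.159). The latter was 2.47 without MYO3 (exact permutation p = 0.563) and 4.09 without DOX3 (exact permutation p = 0.341). The library most correlated with a given library carried the same group name in 8 of 10 cases with file labels and in 7 of 10 with table names.

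**Figure D1:**
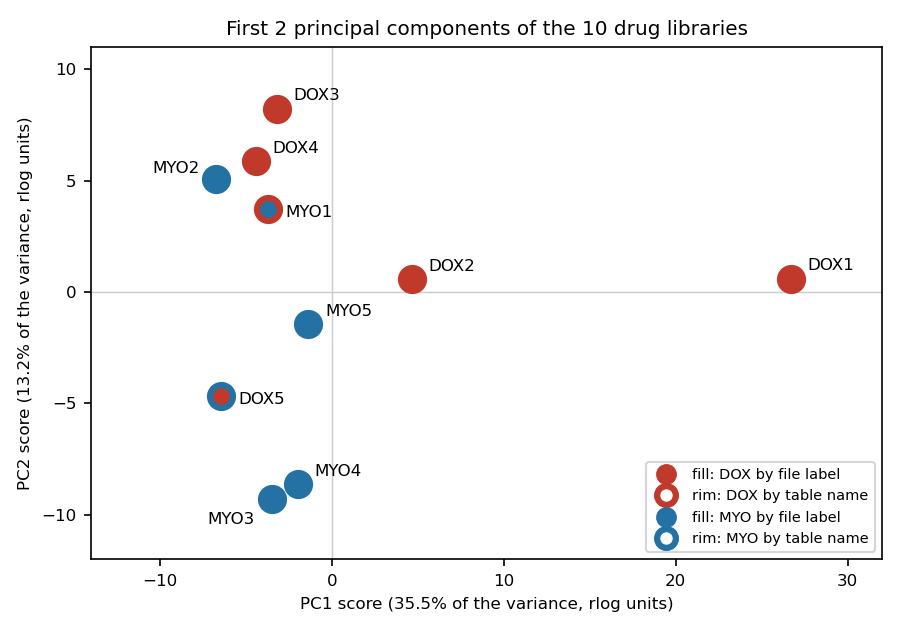
Scores of the 10 libraries on the first (x axis) and second (y axis) principal component of rlog values, with the fill giving the group by file label and the rim the group by table name. DOX1 lies alone at 26.7 on the first component, and the other 9 libraries of both groups overlap between -6.72 and 4.63.

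At the level of single genes, edgeR and limma-voom called no difference between DOX and MYO under either naming when the false discovery rate (FDR) was limited to 0.05, while DESeq2 called a few genes. Of 12538 genes tested by quasi-likelihood in edgeR, with p adjusted after Benjamini and Hochberg, 0 were called with file labels and 0 with table names, and the smallest adjusted p was 0.351 and 0.296. At an unadjusted p under 0.05 there were 1135 genes (9.05%) with file labels, 604 higher in DOX (4.82%) and 531 lower (4.24%). With table names there were 1312 genes (10.5%), 637 higher (5.08%) and 675 lower (5.38%). limma-voom called 0 genes under either naming, with 1114 and 1296 at an unadjusted p under 0.05. DESeq2 called 12 genes (0.0957%) with file labels and 50 (0.399%) with table names, and no gene was in both sets. At an unadjusted p under 0.05 DESeq2 had 1177 (9.39%) and 1347 (10.7%). In the model of all 5 groups edgeR called 0 of 13552 genes, with 960 (7.08%) and 1095 (8.08%) at an unadjusted p under 0.05. With the 2 exchanged libraries left out, 4 pigs against 4, edgeR called 0 of 12682 genes and 1481 (11.7%) had an unadjusted p under 0.05.

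Most fitted differences were small. With file labels 117 genes (0.933%) differed by at least 1 on the log2 scale in either direction and 15 by at least 2, and with table names 145 (1.16%) and 17. The middle 90% of genes lay between -0.36 and 0.47 with file labels, where positive values mean higher in DOX. Genes in which every library of one group lay above every library of the other numbered 83 higher in DOX (0.662%) and 106 lower (0.845%) with file labels, and 105 (0.837%) and 144 (1.15%) with table names. No gene can be separated in this way under both namings, because DOX5 and MYO1 change places. A total of 403 genes had an unadjusted p under 0.05 under both namings, 35.5% of the file-label and 30.7% of the table-name genes, 217 higher and 186 lower in DOX.

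With file labels the lowest p belonged to RAMP2, the receptor activity-modifying protein that makes the calcitonin-like receptor respond to adrenomedullin in endothelium (chromosome 12, 20092204 to 20094426, Sscrofa11.1). It stood at 44.0, 44.2, 43.2, 44.4 and 49.3 CPM in DOX1 to DOX5, and at 57.1, 63.0, 60.7, 65.1 and 57.9 CPM in MYO1 to MYO5. Every DOX library was below every MYO library, and the difference was -0.43 on the log2 scale (SE 0.06, unadjusted p = 2.8e-05, adjusted p = 0.351, edgeR). With table names the difference was -0.35 (SE 0.10, unadjusted p = 0.00492, adjusted p = 0.341, edgeR), with MYO1, at 57.1 CPM, far above the other libraries named DOX.

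The other named genes lower in DOX with file labels had various roles. GPIHBP1, which anchors lipoprotein lipase to the capillary wall (chromosome 4, 1253401 to 1256921), stood at 6.17, 7.67, 13.4, 7.83 and 8.76 CPM in DOX1 to DOX5 and at 18.9, 17.4, 12.8, 21.1 and 17.0 CPM in MYO1 to MYO5. The groups overlapped only through DOX3 and MYO3, and the difference was -0.99 (95% interval -1.43 to -0.55) with file labels and -0.52 (-1.21 to 0.17) with table names. RASIP1, a Ras-interacting protein of vascular lumen formation, spanned 80.1 to 94.7 CPM in DOX and 100.6 to 126 CPM in MYO, a difference of -0.40. The sphingosine-1-phosphate receptor S1PR1 spanned 72.7 to 94.0 CPM in DOX and 103 to 128 CPM in MYO, a difference of -0.41. SEMA3G, a secreted semaphorin, spanned 41.8 to 52.9 and 55.8 to 71.9 CPM, a difference of -0.38. The guanine nucleotide exchange factor MCF2L (-0.38), the PDZ protein GIPC3 (-0.55) and the acylphosphatase ACYP2 (-0.46) completed the 8 genes with the lowest p in this direction among genes with a symbol other than a LOC identifier. With table names the differences of these 7 genes lay between -0.52 (GPIHBP1) and -0.18 (SEMA3G), and of the 7 only GIPC3 had an unadjusted p under 0.05 (0.0168, edgeR).

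The genes higher in DOX with the lowest p with file labels were led by TBX20, a T-box transcription factor of heart development (chromosome 18, 38635603 to 38681690). It stood at 20.6, 24.2, 25.5, 19.7 and 9.84 CPM in DOX1 to DOX5 and at 5.35, 11.4, 6.05, 11.2 and 9.13 CPM in MYO1 to MYO5. DOX1 to DOX4 were above all MYO libraries and DOX5 lay within the MYO range. The difference was 1.21 (SE 0.27, unadjusted p = 0.000921, adjusted p = 0.478, edgeR) with file labels and 1.00 (SE 0.33, unadjusted p = 0.0117, adjusted p = 0.382) with table names. Others of this set differed by 0.26 to 0.50. They included SPRED1 (0.50), an inhibitor of Ras signalling, RHOBTB2 (0.47), an atypical small GTPase, TBL1XR1 (0.36), a subunit of corepressor complexes, RAB23 (0.33), a GTPase of vesicle traffic, MYCBP2 (0.28), a ubiquitin ligase, and TJP1 (0.26), a protein of tight junctions. TJP1 spanned 154 to 171 CPM in DOX and 130 to 143 CPM in MYO.

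**Figure D2:**
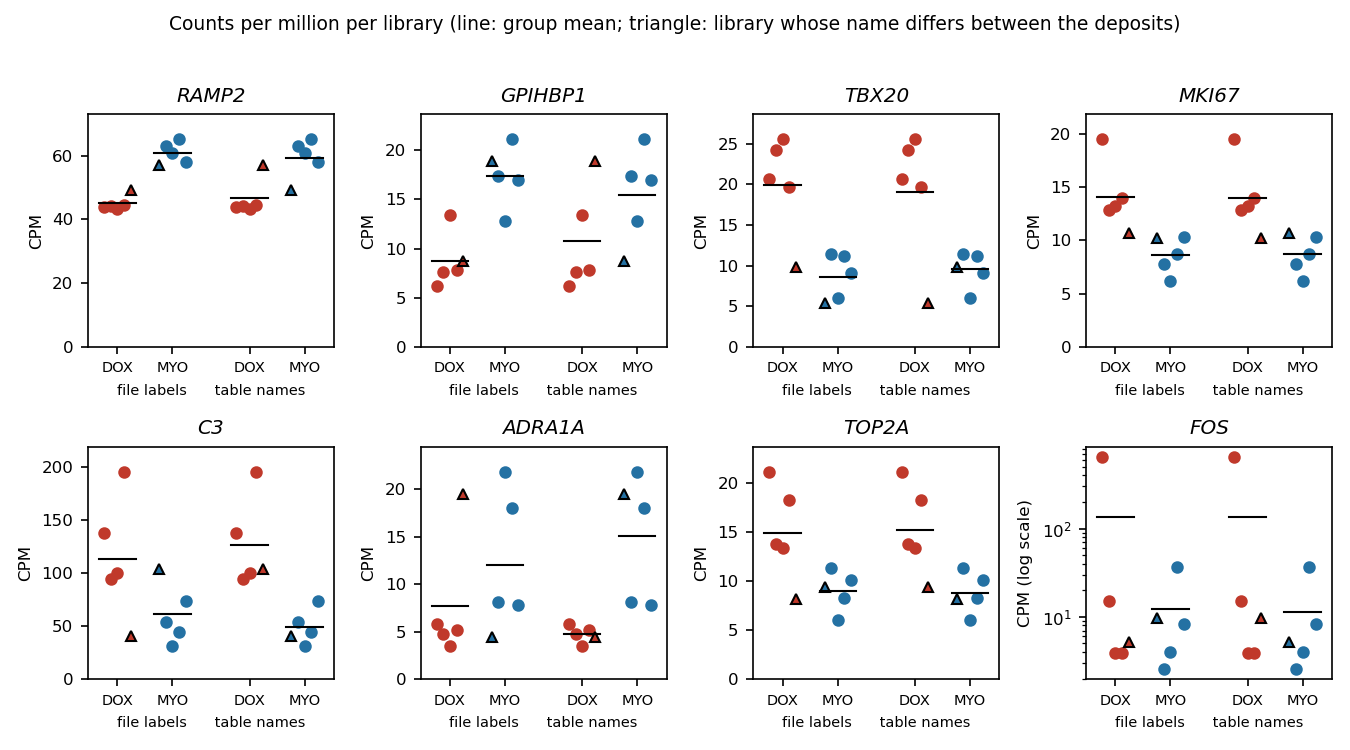
Expression of 8 genes in CPM (y axes from 0, logarithmic for FOS) in the 10 libraries, grouped by file labels and by table names (x axes), with a line at each group mean and triangles for the 2 libraries whose names differ between the deposits. RAMP2 is separated by file label, C3 and ADRA1A by table name, and FOS is set apart by DOX1 at 642 CPM.

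With table names other genes came first. C3, the central component of complement (chromosome 2, 72431470 to 72471622), stood at 138, 94.1, 99.5 and 195 CPM in DOX1 to DOX4 and 104 CPM in MYO1, and at 53.7, 31.2, 44.3, 73.8 and 40.8 CPM in MYO2 to MYO5 and DOX5. Its groups did not overlap, and the difference was 1.37 (95% interval 0.83 to 1.91, adjusted p = 0.296, edgeR), against 0.89 (0.04 to 1.74) with file labels. ADRA1A, the alpha-1A adrenergic receptor (chromosome 14, 10623391 to 10733378), stood at 5.77, 4.78, 3.48 and 5.22 CPM in DOX1 to DOX4 and 4.42 CPM in MYO1, and at 8.18, 21.9, 18.1, 7.78 and 19.5 CPM in MYO2 to MYO5 and DOX5. The groups were again separated, and the difference was -1.67 (-2.32 to -1.01), against -0.65 (-1.80 to 0.49) with file labels.

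Higher in DOX with table names were also POLE, the catalytic subunit of DNA polymerase epsilon (1.37), TNC, the matrix protein tenascin C (1.39), TCF19 (0.90), PLEKHH1 (0.88), RACGAP1, a protein of cytokinesis (0.68), the plasma membrane calcium pump ATP2B1 (0.39) and the transcription factor CREB1 (0.34). Lower were SYNC, an intermediate filament protein of muscle (-0.78), PTDSS1, a phosphatidylserine synthase (-0.69), the basement membrane protein HMCN2 (-0.68), FRMD3 (-0.63), the DNA glycosylase NTHL1 (-0.58), DGCR6L (-0.36) and MAPRE3, which binds microtubule ends (-0.35). All of these kept their sign with file labels, as did 79.1% of all tested genes between the namings. With file labels the values lay between 0.20 (CREB1) and 0.95 (POLE) for the first set and between -0.53 (HMCN2 and FRMD3) and -0.24 (DGCR6L) for the second.

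The 8 genes with the smallest p over both namings in the same direction were RAMP2, FRMD3, PCBD1, RHOBTB2, MKI67, CDON, TENT5A and KCNA4. MKI67, a marker of dividing cells, stood at 19.5, 12.8, 13.2, 14.0 and 10.7 CPM in DOX1 to DOX5 and at 10.2, 7.81, 6.21, 8.70 and 10.3 CPM in MYO1 to MYO5. The difference was 0.70 (95% interval 0.31 to 1.10) with file labels and 0.68 (0.27 to 1.09) with table names, and 0.56 without DOX1 (file labels). CDON, a cell surface receptor of hedgehog signalling, spanned 45.4 to 75.4 CPM in DOX and 24.2 to 42.4 CPM in MYO, and differed by 0.74 and 0.70 with file labels and table names. TENT5A, a poly(A) polymerase, differed by 1.14 and 1.08, and by 0.81 without DOX1, which had the highest level at 136 CPM. KCNA4, a channel of the transient outward potassium current, was low in all libraries, between 0.223 and 1.78 CPM, and differed by 1.38 and 1.54. PCBD1, a cofactor of hepatocyte nuclear factor 1 with a role in biopterin recycling, differed by -0.30 and -0.31. These genes were selected by their p, so the values describe them and give no further support.

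The 12 genes that DESeq2 called with file labels, 2 higher and 10 lower in DOX, included RAMP2, MCF2L, RASIP1, GPIHBP1, GIPC3, ACYP2, S1PR1, TJP1 and TBX20. Of the 50 genes called with table names, 14 were higher and 36 lower, led by PTDSS1, C3 and ADRA1A. In the edgeR test these genes had unadjusted p values of up to 0.00127 (file labels) and 0.00435 (table names). Of the 50, 2 had an absolute log2 difference of at least 2.

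The direct targets and handling of the drug were looked at as a list of 34 genes, 24 of which were expressed highly enough to be tested. Of the 24, 2 were higher and 2 lower in DOX at an unadjusted p under 0.05 with file labels, beside 4.82% and 4.24% of all genes, and 1 higher and 2 lower with table names, beside 5.08% and 5.38%. The median difference was -0.00 with file labels, where that of all genes was also -0.00, and 0.03 with table names. TOP2A, the topoisomerase II isoform of dividing cells, stood at 21.1, 13.8, 13.4, 18.2 and 8.13 CPM in DOX1 to DOX5 and at 9.35, 11.3, 5.98, 8.24 and 10.1 CPM in MYO1 to MYO5. DOX1 to DOX4 were above all MYO libraries and DOX5 was within their range, and the difference was 0.74 (95% interval 0.21 to 1.26) with file labels and 0.80 (0.31 to 1.29) with table names. TOP2B, the isoform of cardiac myocytes, spanned 119 to 149 CPM in DOX and 104 to 129 CPM in MYO, a difference of 0.20 (0.03 to 0.37) with file labels and 0.14 (-0.05 to 0.34) with table names. The reductases AKR7A2 and NQO2 differed by -0.60 and -0.41 with file labels and by -0.34 and -0.42 with table names. NQO1, the related quinone reductase, differed by -0.08 (-0.43 to 0.26), and the export pump ABCC1 by 0.25 (-0.00 to 0.50), where DOX1 was highest at 89.4 CPM and the difference without it was 0.16. The carrier SLC22A16, which transports doxorubicin, differed by 0.51 (-0.05 to 1.07) with file labels and 0.25 (-0.38 to 0.87) with table names.

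Genes of the cell cycle were higher in DOX by their median and by their counts under both namings. Of 42 members tested, 10 were higher and 0 lower in DOX at an unadjusted p under 0.05 with file labels, and 15 higher and 1 lower with table names, beside 4.82% and 5.08% of all genes higher and 4.24% and 5.38% lower. The median difference was 0.31 with file labels and 0.34 with table names. KIF11 (0.54), a mitotic kinesin, BUB1 (0.71), a checkpoint kinase, MCM3 (0.50), a subunit of the replicative helicase, and PCNA (0.30), the replication clamp, were among the 10. The mean centred log2 CPM over the list, given as a score per library, was 0.45, 0.12, 0.05, 0.28 and -0.30 in DOX1 to DOX5 and -0.11, -0.18, -0.37, 0.00 and 0.06 in MYO1 to MYO5. DOX1 and DOX4 were highest and DOX5 and MYO3 were lowest. Without DOX1 the median was 0.22 with 5 members higher and 0 lower (file labels) and 0.27 with 12 higher and 1 lower (table names). In those fits 956 and 1098 of all genes had an unadjusted p under 0.05 in either direction. Without both exchanged libraries the median was 0.40. TOP2A and MKI67 are members of this list, so their values are not separate evidence.

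Interferon-stimulated genes turned with the naming. With file labels 44 of 45 tested members were above 0, the median was 0.38, and at an unadjusted p under 0.05 there were 7 higher and 0 lower, beside 4.82% and 4.24% of all genes. With table names 12 of 45 were above 0, the median was -0.10, and at that p only TRIM25 was higher, beside 5.08% of all genes, and 0 were lower. The score was 0.28, -0.01, 0.19, -0.18 and 0.66 in DOX1 to DOX5 and -0.50, -0.37, -0.15, -0.30 and 0.38 in MYO1 to MYO5, so that the exchanged libraries were the highest and the lowest of the 10. CXCL10, a chemokine induced by interferon, stood at 199 CPM in DOX5 and at 14.9 to 45.6 CPM in the other 9 libraries, with MYO1 at 22.7 CPM. Its difference was 1.52 with file labels and -1.08 with table names, and without DOX5 it was 0.37 and 0.34. OAS2, which senses double-stranded RNA, stood at 69.1, 87.7, 169, 45.3 and 104 CPM in DOX1 to DOX5 and at 28.6, 49.95, 31.5, 53.3 and 92.6 CPM in MYO1 to MYO5, and differed by 0.89 and 0.28. Without DOX3 it differed by 0.58 with file labels and by -0.20 with table names. IFIT1 differed by 0.00 and -0.21. Without DOX5 the median of the list was 0.235 with file labels and 0.069 with table names, and without both exchanged libraries it was 0.13. The direction of this list in DOX against MYO therefore cannot be stated without knowing which names are right, and with table names it turned on DOX5.

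**Figure D3:**
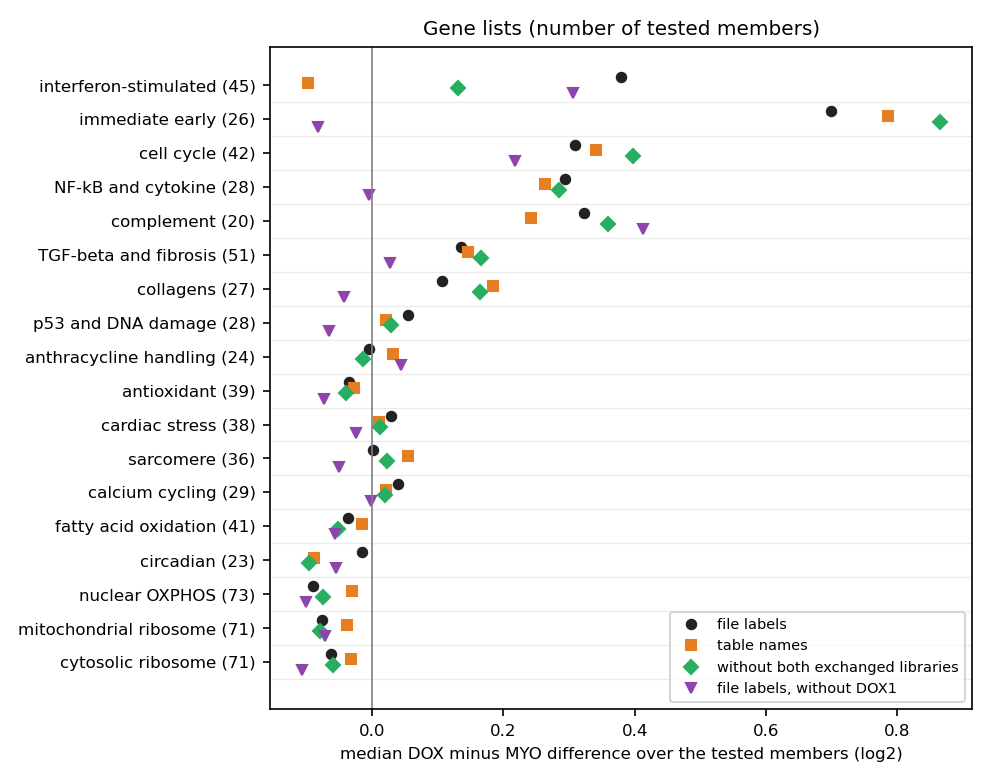
Median difference between DOX and MYO (x axis, log2, positive when higher in DOX) over the tested members of 18 gene lists (y axis), with file labels, with table names, without the 2 exchanged libraries and without DOX1. The interferon list changes sign between the namings (0.38 and -0.10), and the immediate-early list lies at 0.70 with all libraries and at -0.08 without DOX1.

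Immediate-early genes were high in a single library. FOS, a transcription factor induced within minutes of a stimulus, stood at 642, 15.2, 3.91, 3.92 and 5.24 CPM in DOX1 to DOX5 and at 9.60, 2.60, 4.01, 36.5 and 8.41 CPM in MYO1 to MYO5. DOX1 was far above all others, and the remaining DOX libraries lay within the MYO range. FOS differed by 3.48 with all libraries and by -0.79 without DOX1 (file labels). ATF3 stood at 2378 CPM, NR4A3 at 2540 CPM, NR4A1 at 1616 CPM and EGR1 at 606 CPM in DOX1, against at most 88.7, 156, 181 and 85.2 CPM elsewhere. Over the 26 tested members the median was 0.70 with file labels and 0.78 with table names, with 6 and 7 members higher at an unadjusted p under 0.05, beside 4.82% and 5.08% of all genes. Without DOX1 the medians were -0.08 and 0.04, with 0 members higher and 2 lower with file labels and 0 in either direction with table names. Among all genes tested without DOX1, 956 and 1098 had an unadjusted p under 0.05 in either direction.

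With file labels, other lists with a positive median rested on DOX1 in the same way. The median over 28 genes of NF-kB and cytokine signalling was 0.29 with all libraries and -0.01 without DOX1 (file labels), and the chemokine CCL2 stood at 112 CPM in DOX1 and 3.72 to 14.0 CPM elsewhere. OSMR and IL6ST, which together form the receptor of oncostatin M, were exceptions, with differences of 0.87 and 0.36 with all libraries and 0.52 and 0.37 without DOX1. Over 51 genes of TGF-ß signalling and fibrosis the median was 0.14 and, without DOX1, 0.03. THBS1, an activator of latent TGF-ß, stood at 2325, 231, 199, 170 and 108 CPM in DOX1 to DOX5 and at 67.1, 136, 120, 112 and 156 CPM in MYO1 to MYO5, and differed by 2.36 with and 0.59 without DOX1. Over 27 collagens the median was 0.11 and, without DOX1, -0.04 with file labels, and 0.18 and, without DOX1, 0.09 with table names. The fibrillar collagens COL1A1 and COL3A1 differed by 0.12 (95% interval -0.33 to 0.56) and -0.03 (-0.28 to 0.21) with file labels. With table names they differed by 0.33 (-0.07 to 0.72) and -0.00 (-0.25 to 0.24). Without DOX1 they differed by -0.08 and -0.10 with file labels and by 0.17 and -0.07 with table names. ADAMTS4, a metallopeptidase that cleaves aggrecan, stood at 236 CPM in DOX1 and 3.79 to 11.8 CPM elsewhere.

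**Figure D4:**
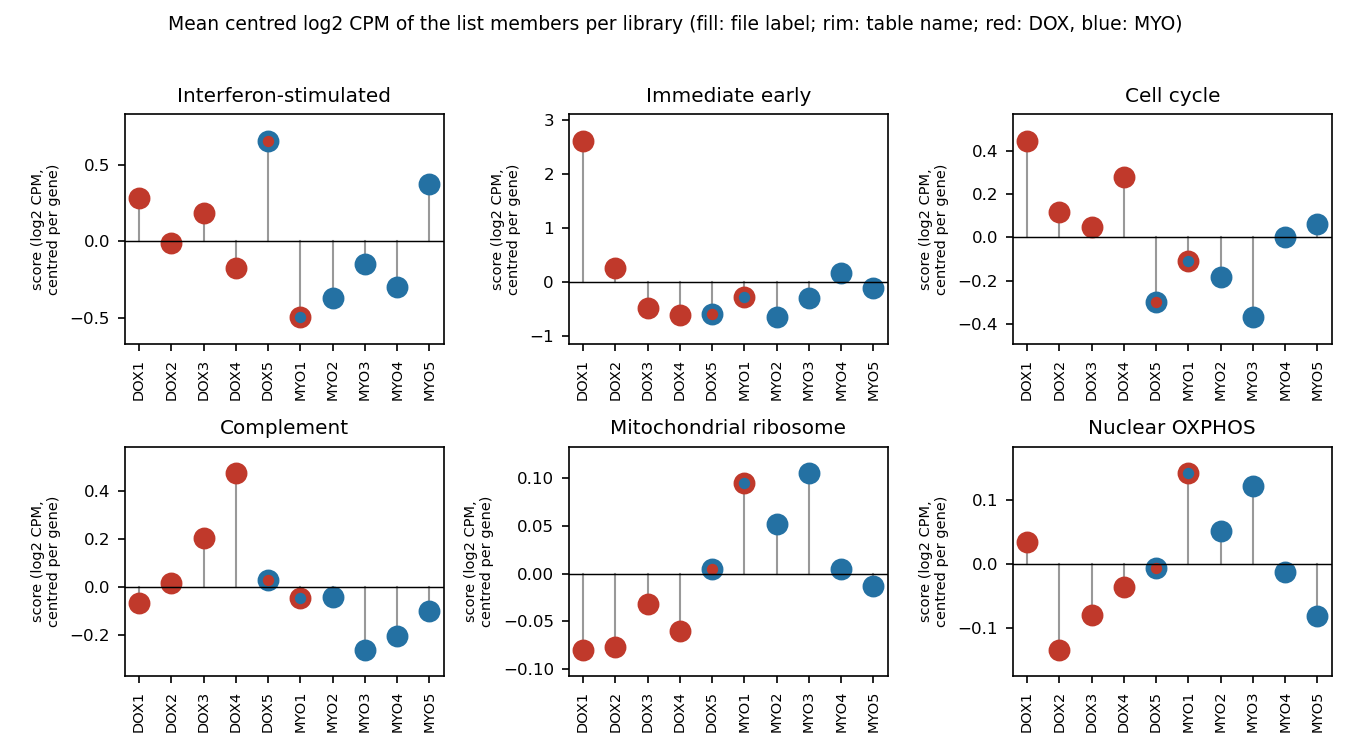
Mean log2 CPM of the members of 6 gene lists after centring each gene (y axes) in the 10 libraries (x axes), with the fill giving the group by file label and the rim the group by table name. DOX1 alone is high for immediate-early genes (2.61), DOX5 and MYO1 are the extremes for interferon-stimulated genes (0.66 and -0.50), and DOX4 is highest for complement (0.48).

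Complement genes and macrophage markers were higher in DOX by their medians under both namings, and both depended on DOX4. Of 20 complement genes tested, 17 were above 0 with file labels, with a median of 0.32, 2 past an unadjusted p of 0.05 above 0 and 1 below 0, beside 4.82% and 4.24% of all genes. With table names the median was 0.24, with 2 past that p above 0 and 0 below 0, beside 5.08% and 5.38%. All 10 macrophage markers were above 0 with file labels, with a median of 0.28, and 9 of 10 with table names, with a median of 0.31. Of them MRC1, the mannose receptor, had an unadjusted p under 0.05 under both namings, with 22.7, 17.0, 26.7, 33.9 and 14.0 CPM in DOX1 to DOX5 and 16.9, 21.9, 12.6, 12.6 and 15.1 CPM in MYO1 to MYO5. Its difference was 0.53 (0.02 to 1.05) and 0.62 (0.15 to 1.10), and 0.35 with file labels without DOX4. C1QC, a subunit of the first component of complement made by macrophages, stood at 119 CPM in DOX4 and 42.5 to 85.9 CPM in the others. Without DOX4 the medians with file labels were 0.13 for complement and 0.09 for macrophage markers. In bulk tissue a larger number of cells of a type and more RNA per cell cannot be told apart. The 9 lymphocyte markers tested had medians of 0.55 with file labels and 0.07 with table names, with scores from -0.83 in MYO4 to 1.02 in DOX5, and 0 of them had an unadjusted p under 0.05.

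Nuclear genes of oxidative phosphorylation (OXPHOS) and of the mitochondrial ribosome were lower in DOX with file labels by their medians, and 0 members of either list passed the FDR threshold in edgeR. Of 73 OXPHOS subunits, 65 were below 0, 8 of them and 0 in the other direction at an unadjusted p under 0.05, beside 4.24% of all genes lower, and the median was -0.09. The largest of these differences was in ATP5ME, a subunit of ATP synthase, at -0.26 (95% interval -0.46 to -0.06). NDUFA3, a subunit of complex I, spanned 74.3 to 90.6 CPM in DOX and 86.5 to 100.7 CPM in MYO, a difference of -0.18. Of 71 mitochondrial ribosomal proteins, 65 were below 0 and 11 lower at an unadjusted p under 0.05, with a median of -0.08. MRPL10 differed by -0.37 and MRPL51 by -0.23. With table names the medians were -0.03 and -0.04, with 2 OXPHOS subunits and 7 ribosomal proteins lower, beside 5.38% of all genes. Without DOX1 the medians with file labels were -0.10 and -0.07. Of the 71 cytosolic ribosomal proteins, 61 were also below 0 with file labels. At an unadjusted p under 0.05, 4 were lower and 0 higher, beside 4.24% and 4.82% of all genes. Their median was -0.06 with file labels, -0.03 with table names and -0.11 with file labels without DOX1.

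Of 23 clock genes, 2 were higher and 1 lower in DOX with file labels (unadjusted p under 0.05; 4.82% and 4.24% of all genes). With table names there were 3 higher and 7 lower (5.08% and 5.38% of all genes). The medians were -0.02 and -0.09. Without DOX1 there were 0 higher and 2 lower with file labels and 2 higher and 10 lower with table names, and the medians were -0.05 and -0.29. Of all genes tested in those fits, 956 and 1098 had an unadjusted p under 0.05 in either direction. CRY1, a repressor of the clock, stood at 26.1, 17.6, 17.5, 14.0 and 9.57 CPM in DOX1 to DOX5 and at 11.3, 10.3, 14.2, 9.35 and 11.2 CPM in MYO1 to MYO5, and differed by 0.59 (file labels) and 0.66 (table names). DOX1 was highest, and without it CRY1 differed by 0.38 with file labels and no longer had an unadjusted p under 0.05. NR1D1, which encodes the nuclear receptor REV-ERB alpha, stood at 14.7, 19.6, 17.9, 33.9 and 72.8 CPM in DOX1 to DOX5 and at 38.9, 79.3, 51.2, 59.1 and 27.9 CPM in MYO1 to MYO5, and differed by -0.70 and -1.22. PER3 differed by -0.53 and -0.86. Leaving out 1 library at a time with file labels gave -1.25 to -0.48 for NR1D1 and -0.74 to -0.21 for PER3. No time of day at which the tissue was taken was used here, and its part in these values was not tested.

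Over 28 targets of p53, a transcription factor activated by DNA damage, the median was 0.05 with file labels and 0.02 with table names, and without DOX1 it was -0.07 and -0.06. MDM2, a direct target of p53, stood at 30.3 to 35.3 CPM in DOX and 29.4 to 37.7 CPM in MYO, with a difference of -0.01 (95% interval -0.20 to 0.18). The cell cycle inhibitor CDKN1A differed by 0.14 (-0.58 to 0.86) with file labels, 0.56 (-0.07 to 1.19) with table names and -0.16 with file labels without DOX1, which was highest at 46.5 CPM. Over 39 antioxidant genes the median was -0.04, with CAT at -0.03 (-0.22 to 0.16), SOD2 at -0.13 (-0.39 to 0.12) and GPX4 at 0.02 (-0.13 to 0.17). TFRC, the transferrin receptor, stood at 439, 478, 370, 320 and 255 CPM in DOX1 to DOX5 and at 298, 297, 285, 298 and 256 CPM in MYO1 to MYO5, and differed by 0.38 (0.06 to 0.70) and 0.45 (0.18 to 0.73), while the median over 25 iron genes was 0.00 with file labels.

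Over 36 sarcomere genes the median was 0.00, over 29 genes of calcium cycling 0.04, and over 38 genes of cardiac stress and hypertrophy 0.03 with file labels. Without DOX1 these medians were -0.05, 0.00 and -0.02. The calcium pump ATP2A2 spanned 3570 to 5951 CPM in DOX and 3980 to 4834 CPM in MYO, a difference of 0.09 (95% interval -0.18 to 0.36), and the calcium release channel RYR2 differed by 0.12 (-0.19 to 0.43). Without DOX1 ATP2A2 and RYR2 differed by 0.00 and 0.06. NPPB, the B-type natriuretic peptide, stood at 12.3, 8.03, 36.5, 31.3 and 45.0 CPM in DOX1 to DOX5 and at 40.5, 217, 24.4, 30.3 and 15.4 CPM in MYO1 to MYO5. The groups overlapped widely, and the difference of -1.30 (-2.85 to 0.24) with file labels rested on MYO2, without which it was -0.05. Over 41 genes of fatty acid oxidation the median was -0.04, with 2 higher and 6 lower (unadjusted p under 0.05) with file labels, beside 4.82% and 4.24% of all genes, and 0 higher and 4 lower with table names, beside 5.08% and 5.38%. ACADM, the medium-chain acyl-CoA dehydrogenase, differed by -0.26 (-0.52 to -0.01) with file labels and -0.01 (-0.32 to 0.29) with table names. MYO1 was highest for ACADM at 895 CPM, and without it the difference with file labels was -0.15. The coactivator PPARGC1A differed by 0.10 (-0.38 to 0.57) and, without DOX1, which was highest at 176 CPM, by -0.13 with file labels.

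Endothelial markers differed in direction. Of 7 tested with file labels, TIE1 (-0.43), PECAM1 (-0.29) and ESAM (-0.16) were lower and KDR (0.55) was higher in DOX at an unadjusted p under 0.05, beside 4.24% of all genes lower and 4.82% higher. CDH5 differed by -0.07 (95% interval -0.28 to 0.15), and the median was -0.07. With table names 0 of the 7 had an unadjusted p under 0.05 and the median was 0.04. The score over these markers was lowest in DOX5 at -0.24 and highest in MYO5 at 0.15. Ventricular myocyte markers had medians of -0.01 and 0.05, fibroblast markers of 0.10 and 0.20, and markers of Schwann cells of 0.30 and 0.44. Of 6 Schwann cell markers, 2 and 3 were higher in DOX at an unadjusted p under 0.05, beside 4.82% and 5.08% of all genes.

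Genes that set both drug groups apart from another group were also compared. Both drug groups together differed from Hyper, the group with the same name in both deposits, in 193 DEGs (1.47% of 13130 genes; edgeR, adjusted p up to 0.05 and a log2 difference of 2 or more in either direction), 108 higher and 85 lower. The drug libraries differed from Hyper also in follow-up, in Y-linked counts and by the stenosis of the Hyper pigs, which cannot be told apart from the drug. Of these DEGs 122 were tested between DOX and MYO, and 0 passed the FDR threshold. At an unadjusted p under 0.05, 17 were higher and 5 lower in DOX with file labels, beside 4.82% and 4.24% of all genes, and 11 higher and 8 lower with table names, beside 5.08% and 5.38%. Their median absolute difference between DOX and MYO was 0.29 with file labels and 0.32 with table names, against 2.50 between drug and Hyper and 0.12 between DOX and MYO over all genes with file labels. The 2.50 could not be below 2, because these genes were chosen for that difference. Their SE was also larger, with a median of 0.33 against 0.14. The 95% interval of the DOX and MYO difference lay within 1 in either direction for 56 of the 122 and within 2 for 107.

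The spread between pigs was larger in DOX than in MYO as fitted, and this was carried by DOX1. The biological coefficient of variation was 22.8% in DOX and 16.7% in MYO with file labels, and 22.2% and 17.0% with table names. Without DOX1 that of DOX was 17.2% with file labels and 16.5% with table names, values computed after DOX1 had been seen to stand apart. It was 20.9% in Hyper. The spread of each library, taken as the root mean square distance of its rlog values from the mean of the other libraries of its group, was 0.270 in DOX1 and 0.129 to 0.182 in the other 9 libraries with file labels. Its mean was 0.177 ± 0.055 (SD, n = 5) in DOX and 0.141 ± 0.009 (SD, n = 5) in MYO (exact permutation test, 2-sided, p = 0.135), and with table names the exact permutation p was 0.238. Without DOX1 the mean in DOX exceeded that in MYO by 0.00788 (file labels, exact permutation p = 0.357). DOX then had 4 libraries and MYO 5, and a mean over fewer other libraries makes these distances larger by itself. Without DOX2, DOX3 or DOX4 the difference with file labels was 0.0576, 0.0551 and 0.0508, with exact permutation p of 0.00794, 0.0238 and 0.0476. DOX1 enters the mean from which every other DOX library is measured. The distances within a group are thus not independent, and none of these permutation p values measures a difference in spread between pigs.

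Gene by gene, the median SD of log2 CPM was 0.22 in DOX and 0.19 in MYO with file labels, and 58.0% of genes had the larger SD in DOX (55.4% with table names). Without DOX1 these were 0.18, 0.19 and 47.6% (44.9% with table names). The share was also lower without DOX5 with file labels, at 52.3%, and without MYO1 with table names, at 51.7%. The most variable expressed genes within the groups were FOS, ATF3, NR4A3, OTUD1, ADAMTS4 and SCN3B. OTUD1, a deubiquitinase, stood at 872 CPM in DOX1 and 11.7 to 46.5 CPM elsewhere. SCN3B, a subunit of the cardiac sodium channel, followed another pattern, with 4.90, 12.3, 231, 85.3 and 54.0 CPM in DOX1 to DOX5 and 23.4, 136, 20.4, 18.1 and 29.6 CPM in MYO1 to MYO5, so that DOX3 and MYO2 were highest.

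The differences that 5 pigs against 5 could have shown were computed from the SE of each gene. The median SE was 0.14 on the log2 scale, and the median 95% interval reached 0.30 to either side of the estimate. For a gene with median SE, a true difference of 0.42 (1.34-fold) would pass an unadjusted p of 0.05 with a power of 80%. To be the first call at an FDR of 0.05 among 12538 genes a p of 3.99e-06 is needed, and at that level the median detectable difference was 1.31 (2.48-fold), with quartiles of 0.91 and 2.10. It was 2.31 in the third of genes with the lowest expression, 1.16 in the middle and 0.89 in the highest. At that level a difference of 1 was detectable in 31.4% of genes and a difference of 2 in 72.9%. If many genes differed at once, the p needed would be less strict.

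Seen from the intervals, large differences were bounded for most genes. The 95% interval lay wholly within 1 on the log2 scale, a fold change of 2 in either direction, for 10985 genes (87.6%) and within 2 for 12375 (98.7%) with file labels. Among the genes named above, the intervals of MDM2, CAT, SOD2, GPX4, ATP2A2, RYR2 and COL3A1 were within 0.43 in either direction, while those of NPPB, CXCL10, FOS and THBS1 reached beyond 2. Differences of the size seen in RAMP2 or the OXPHOS subunits were thus below the first-call level for these group sizes, and a missed threshold does not show that the formulations acted alike on these genes.

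**Figure D5:**
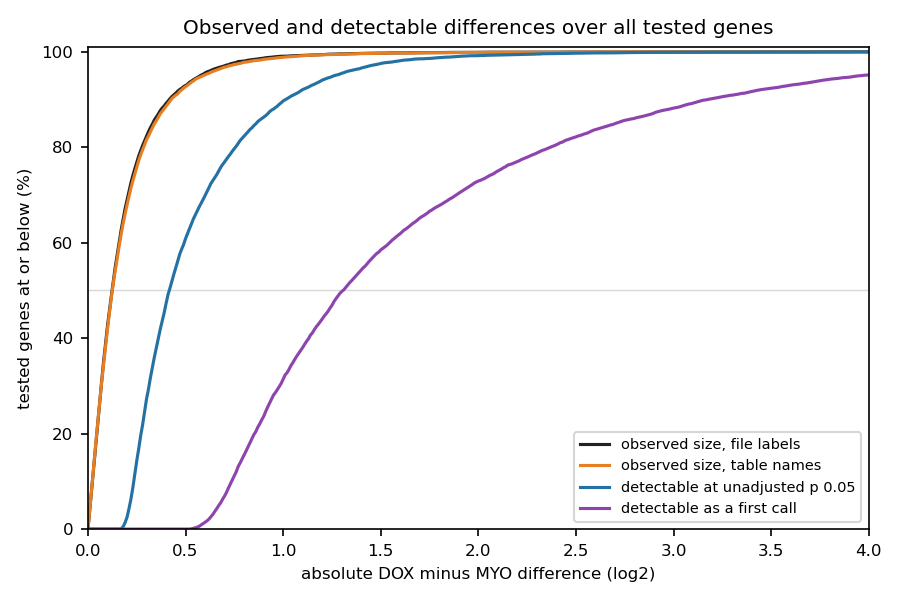
Cumulative share of the 12538 tested genes (y axis, percent) whose value is at or below that on the x axis (absolute log2 difference), for the differences observed under both namings and for those detectable with 80% power at an unadjusted p of 0.05 and at the p needed for a first call. At the first-call level 31.4% of genes reach a difference of 1 and 72.9% a difference of 2.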

How the data were processed

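RNA of LV tissue from 10 pigs, 1 library per pig, was compared (DOX n = 5, MYO n = 5). The authors aligned read pairs to Sscrofa11.1 with STAR, counted them per Ensembl gene with HTSeq 0.11.1, strand-specifically, and deposited raw counts without normalization. They also deposited a table whose expression columns hold log2-like values scaled for library size. These log2 values served only to match its columns to the count files, by Spearman correlation. Its remaining columns hold the authors' DESeq2 log2 fold changes and adjusted p-values against Control and were not used. No expression column lacked a sample. Libraries differed from each other by more than sampling noise, so none was counted as a duplicate.

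Counts of 25879 genes were analysed in R 4.3.3. Genes were kept by filterByExpr of edgeR 4.0.16, scaled by TMM and tested with the quasi-likelihood test with Benjamini-Hochberg adjustment, fitted to the 10 libraries without a block. Log2 CPM values used a prior count of 2. DEGs were genes with adjusted p up to 0.05 and a log2 difference of 2 or more in either direction. Symbols came from RefSeq for 14856 genes and from the authors' table for 1190. Coordinates are those of the RefSeq annotation of Sscrofa11.1. The gene lists (29 pathway and 13 marker lists), the libraries and the comparison were chosen with earlier results of these data known. Named were, among genes with a symbol other than a LOC identifier, per naming and direction the 8 genes with the lowest p and a mean log2 CPM of at least 1, the 8 with the smallest p over both namings, the 6 most variable with a mean log2 CPM of at least 3, every gene past the FDR threshold, and list members. Some genes that this rule names are not reported here. Components used the rlog values of DESeq2 1.42.0 over all tested genes (alternatives: log2 CPM, the 500 most variable genes). Detectable differences used the SE of each gene, the median total degrees of freedom of the fit (residual plus prior, 11.55 with file labels), 80% power and the p needed for a first call. Alternatives were RLE scaling, other filters, DESeq2, limma-voom (limma 3.58.1), the model of 5 groups, a replicate block, and leaving out libraries. The fit was tested on simulated data. Exact permutation tests and summaries were run in scipy 1.17.1 and pandas 2.3.3 (Python 3.11.15, numpy 2.4.6). Total counts of 10147011 to 15975201 limit precision most for genes of low expression.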

Additional observations from a re-analysis of the deposited data

Results flagged for a closer look

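In each group of 5 libraries, the highest or lowest value was compared with its neighbours for the named genes, list scores and library measures. Of 508 such groups over both namings, 45 (8.86%) held a library set apart by more than the critical gap of Dixon's test. Chance flags about 1 in 20 groups, the groups of both namings overlap, and many of the genes were chosen for their values here. No explanation of these values was tested.

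DOX1 accounted for 18 of the 45. It was set apart in DOX under both namings for FOS (642 CPM, against 3.91 to 15.2 CPM in the other DOX libraries with file labels), ADAMTS4 (236 CPM), CCL2 (112 CPM), JUNB (153 CPM), the immediate-early score (2.61) and the NF-kB and cytokine score (0.86). With file labels it was also set apart for THBS1 (2325 CPM) and OSMR (33.9 CPM), and with table names for OTUD1 (872 CPM), TNC (20.1 CPM), the TGF-ß and fibrosis score (0.561) and its distance from the group mean (0.265, against 0.130 to 0.163).

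DOX5, named MYO1 in the table, accounted for 12. Among the DOX libraries by file label it stood apart for ADRA1A (19.5 CPM), DGCR6L (37.7 CPM), FRMD3 (85.6 CPM), NTHL1 (11.9 CPM), RAMP2 (49.3 CPM), POLE (1.26 CPM), TBX20 (9.84 CPM) and TCF19 (1.44 CPM). Among the MYO libraries by table name it stood apart for CXCL10 (199 CPM, against 14.9 to 26.6 CPM), IRF1 (66.1 CPM), ACYP2 (37.8 CPM) and TCF19 (1.44 CPM). MYO1, named DOX5 in the table, stood apart among the DOX libraries by table name for ACADM (895 CPM), KDR (65.1 CPM), MCF2L (115 CPM), RAMP2 (57.1 CPM), TBX20 (5.35 CPM) and the mitochondrial ribosome score (0.0948).

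The remaining values were spread over other libraries. MYO5 stood apart for ABCC1 under both namings (72.2 CPM), and with file labels for TFRC (256 CPM) and the score of cytosolic ribosomal proteins (-0.0917). MYO2 stood apart for SCN3B with file labels (136 CPM) and for CREB1 with table names (14.5 CPM). MYO3 stood apart with table names for PCBD1 (41.3 CPM) and the antioxidant score (0.0965). DOX3 stood apart with table names for the share of counts on mitochondrial genes (19.7%).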

How the results depend on the processing

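The absence of edgeR calls at the FDR threshold held under both namings with RLE scaling, other filters, limma-voom, the model of 5 groups, and without the exchanged libraries. DESeq2 called 12 genes (file labels) and 50 (table names), 2 of the latter past both thresholds. Leaving out each library in turn gave 0 to 1 calls with table names. The single call, also past both thresholds, came without DOX3 and was GRIK1, a glutamate receptor subunit with low counts that failed the filter with all libraries (log2 difference 4.53, SE 0.56, adjusted p = 0.0204, edgeR; 2 counts in DOX3 against 77, 58 and 92 in DOX1, DOX2 and DOX4). The number of genes at an unadjusted p under 0.05 was 813 (without MYO3) to 1658 (without DOX5) with file labels, and 960 (without MYO3) to 1721 (without MYO1) with table names.

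The labels number the pigs of both groups from 1 to 5 and do not say whether equal numbers were paired. Same-numbered libraries did not deviate together (no pair above 0.1). Such correlations of expression cannot show whether the pigs were paired. With the replicate block edgeR called 0 genes, and 881 and 1023 had an unadjusted p under 0.05.

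The first-component difference ranged from -1.11 to 9.29 (file labels) and from -3.50 to 10.3 (table names) over left-out libraries. The lowest value was that without DOX1, where the component need not be the same axis. The second-component difference (file labels) ranged from -0.94, reversed, without MYO3 to 6.31 without MYO2. With table names it ranged from 2.47 without MYO3 to 9.43 without MYO2, its unadjusted exact permutation p was above 0.05 without each of DOX3, DOX4, DOX5, MYO1, MYO3, MYO4 and MYO5, and it was 2.91 over the 500 most variable genes (p = 0.198) and 8.45 without both exchanged libraries (p = 0.114; exact permutation tests). The difference in spread ranged from 0.00788 to 0.0576 and from 0.00155 to 0.0502, lowest without DOX1, and its exact permutation p was under 0.05 without DOX2, DOX3 or DOX4 (file labels) and without DOX2 or DOX3 (table names). DOX1 enters the mean for every other DOX library there, so these p values do not measure a difference in spread between pigs. The median detectable difference at the first-call level was 1.29 with table names, and 1.27 and 1.26 in the model of 5 groups. FOS ranged from -0.79 to 4.46 (file labels) and from -0.48 to 4.75 (table names), reversed without DOX1 and highest without MYO4. The cause of the other changes was not tested.

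Limits are the group size of 5, the unresolved names of 2 libraries, 1 library that carries several lists, counting depth for genes of low expression, and tissue from animals whose health had deteriorated. The labels do not give the time of day of sampling.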
